A study of Mus musculus with 6 samples.

Results

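Chemokine ligands are the 38 genes, of 33965 in the deposited table, whose symbol is Ccl or Cxcl with a number (and a letter from a to d for close copies), together with Cx3cl1, Xcl1, Pf4 and Ppbp. Receptors were left out of the group. Their RNA was measured in 6 subcutaneous MC38 tumors of female C57BL/6 mice bought at 6 weeks of age, with 3 PBS-treated and 3 GB2-treated mice. GB2 is a prodrug made of MSA-2, a STING agonist, and artesunate, described as a TREM2 inhibitor. The graft was the same in both groups, a single line of mouse colon carcinoma cells. GB2 is dosed at 10 mg/kg in this model, but the labels give no dose for the sequenced tumors, and they speak of no pooling. Bulk RNA is a mixture of tumor cells, immune cells and stroma, so fewer cells of a type and less RNA per cell cannot be told apart in any value given here.

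Chemokines are small secreted proteins that bind G protein-coupled receptors on leukocytes and draw the cells along a gradient. They are sorted by the spacing of their first cysteines into CC, CXC, CX3C and XC classes, and by use into inflammatory ligands, which are switched on by NF-kappaB or interferon signaling, and homeostatic ligands, which are made at rest. In tumors, ligands of CCR2 recruit monocytes, ligands of CXCR2 recruit neutrophils, and the interferon-inducible ligands of CXCR3 recruit T cells and NK cells.

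Total counts ran from 64764405 to 83690056 per tumor, and the 3 GB2 libraries were the 3 largest. About 4 deposited counts stand for 1 read pair. PBS tumor 1 stood apart from the other tumors on the first principal component, which held 34.0% of the variance. PBS tumor 3 had the lowest value of the 6 tumors for 20 of the 29 ligands that could be tested. Cell markers also differed between the groups. The summed level of 11 macrophage markers was 64.2 to 89.9 CPM (counts scaled to an equal library total) in PBS and 251 to 341 CPM in GB2 tumors, with Csf1r and Adgre1 among them. The 7 fibroblast markers summed to 198 to 369 CPM against 627 to 881 CPM, the 7 endothelial markers to 53.9 to 70.1 CPM against 112 to 128 CPM, and the 10 neutrophil markers to 4.57 to 6.56 CPM against 21.1 to 24.2 CPM, with Ly6g at 0 in all tumors. Without Mmp9, the most abundant of them, the neutrophil sum was 2.43 to 4.44 CPM against 9.28 to 12.4 CPM. Of its 7 tested genes 5 had GB2 values all above PBS values (Mmp9, Csf3r, Cxcr2, S100a8 and S100a9), against 8.61% of all genes tested. Retnlg, Ltf, Camp and Ngp were at most at 0.376 CPM in any tumor, with overlap. GB2 values lay all above PBS values in 11 of 11 macrophage, 7 of 7 fibroblast and 6 of 7 endothelial markers. The other endothelial marker, Vwf, overlapped and had a log2 fold change of -0.48. Lyz2 was the most abundant macrophage marker, at a mean of 31.65 CPM in PBS and 136.5 CPM in GB2 tumors. Sums also stood apart for skeletal muscle (77.2 to 136 CPM in PBS and 140 to 183 CPM in GB2 tumors) and mast cells (4.08 to 6.38 CPM and 10.6 to 14.0 CPM). So did those of dendritic cells (8.15 to 10.5 CPM and 13.8 to 16.4 CPM) and lymphatic endothelium (10.8 to 13.5 CPM and 18.3 to 25.1 CPM). Of 4 tested dendritic cell genes only 1, Itgax, had GB2 values all above PBS values, and Zbtb46, the most abundant, overlapped. Of 5 lymphatic genes 2, Pdpn and Flt4, lay above, and Prox1 had a log2 fold change of -0.11. This held for 3 of 4 tested mast cell genes and 4 of 5 muscle genes, against 8.61% of all genes tested. Sums overlapped for B cells, skin and adipocytes. The sum of 5 erythroid genes ran the other way with overlap, at 507 to 7473 CPM in PBS and 94.6 to 1271 CPM in GB2 tumors. At an unadjusted p under 0.05 and at least 2-fold, 3 of the 5 were lower, against 0.918% of all genes tested. The median log2 fold change of the 5 was -2.93. The 9 T cell markers summed to 1.43 to 8.77 CPM and 2.80 to 7.71 CPM. The 6 epithelial markers were low and overlapped between the groups, at 2.60 to 6.10 CPM and 3.69 to 7.74 CPM in sum. The 6 NK cell markers summed to 0.424 to 2.13 CPM and 1.32 to 3.81 CPM. The part of these cell markers in the ligand values was not tested.

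The upstream sequence of 29 of the 38 ligands was found in the RefSeq promoter set on GRCm38.p6, and the 250 bases before the start were searched on both strands for the kappaB consensus motif (bound by NF-kappaB) and for the core of the interferon-stimulated response element, which is GAAA, any 2 bases and GAAA again. A kappaB match was found in 7 of the 29 (24.1%), against 7.25% of 32851 promoters of the same length. These were Ccl1, Ccl9, Ccl20, Cxcl1, Cxcl2, Cxcl3 and Cxcl10. The interferon element was found in 3 of the 29 (10.3%), against 2.98% of all promoters, namely Ccl19, Cxcl10 and Cxcl14. The windows of 3 neighbouring CXCR2 ligand genes and of Cxcl10 are shown, with kappaB and interferon matches in capitals. Cxcl10 had the highest mean FPKM (a level scaled by transcript length) over all tumors. Values of PBS and GB2 tumors overlapped for Cxcl1 and Cxcl10 and not for Cxcl2 and Cxcl3, a contrast that was not tested. Overlapping matches of one motif were joined. Windows were not found for Ccl2, Ccl4, Ccl5, Ccl7, Ccl11, Ccl24, Cxcl5, Cxcl11 and Cxcl16.

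Cxcl1 (chr5:90890995-90891244, plus strand): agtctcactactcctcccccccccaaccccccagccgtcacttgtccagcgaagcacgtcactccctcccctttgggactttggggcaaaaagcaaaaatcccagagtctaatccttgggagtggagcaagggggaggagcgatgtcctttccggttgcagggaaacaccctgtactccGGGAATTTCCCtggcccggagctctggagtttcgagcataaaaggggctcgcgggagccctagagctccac
Cxcl2 (chr5:90903649-90903898, plus strand): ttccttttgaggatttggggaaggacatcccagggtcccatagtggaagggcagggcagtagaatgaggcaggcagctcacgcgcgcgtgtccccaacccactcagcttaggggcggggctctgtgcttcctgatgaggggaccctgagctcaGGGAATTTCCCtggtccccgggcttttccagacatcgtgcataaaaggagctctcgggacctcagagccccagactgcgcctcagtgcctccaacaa
Cxcl3 (chr5:90785851-90786100, plus strand): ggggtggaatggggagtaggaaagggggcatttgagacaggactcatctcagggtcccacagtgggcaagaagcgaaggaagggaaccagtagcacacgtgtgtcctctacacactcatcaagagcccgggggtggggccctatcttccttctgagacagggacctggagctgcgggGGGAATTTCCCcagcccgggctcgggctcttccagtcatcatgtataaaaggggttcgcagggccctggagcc
Cxcl10 (chr5:92348890-92349139, minus strand): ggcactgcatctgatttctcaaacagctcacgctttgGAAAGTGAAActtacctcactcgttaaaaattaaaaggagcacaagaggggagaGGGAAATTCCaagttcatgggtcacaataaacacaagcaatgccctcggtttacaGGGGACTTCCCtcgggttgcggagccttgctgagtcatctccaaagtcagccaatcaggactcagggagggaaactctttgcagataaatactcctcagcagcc

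In Cxcl1, Cxcl2 and Cxcl3 the capitals spell the same letters, GGGAATTTCCC, starting 71, 97 and 73 bases before the start. Cxcl10 holds the interferon element 213 bases before its start and kappaB matches 159 and 104 bases before it. A match is a description of letters and not a proven binding site.

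Of the 38 ligands, 29 had enough counts to be tested at the filter's minimum count of 10, and 9 were too low. At a minimum count of 40, 24 ligands were left, and Ccl11, Ccl21a, Ccl22, Ccl24 and Cxcl11 were too low as well. In the 9, no tumor had more than 20 counts, or about 5 times the count of 1 read pair. Ccl17, a CCR4 ligand, was at 0 in all 6 tumors. Ccl19, Ccl20, Ccl21b, Ccl21d and Xcl1 stayed under 3 read pairs, or 12 counts, in every tumor. Xcl1, made by NK and activated CD8+ T cells to attract dendritic cells, had a single read pair's worth of 4 counts, in GB2 tumor 3. Ccl1 had 12 counts in PBS tumor 2 and 8 in GB2 tumor 2. The B cell attractant Cxcl13 had 16 and 20 counts in GB2 tumors 1 and 3 and 0 in the other tumors. Ccl27b had between 4 and 12 counts in every tumor. Differences in these 9 genes were not detectable at this depth. Ccl21a, Ccl21b and Ccl21d are near-identical copies, as are Ccl27a and Ccl27b, so the way reads were divided between them is uncertain.

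Levels were compared between genes on the FPKM scale, which is scaled by transcript length. A mean of at least 1 FPKM over the 6 tumors was reached by 17 of the 38 ligands. The sum over all ligands was 35.7, 45.3 and 17.4 FPKM in PBS tumors 1, 2 and 3 and 68.7, 50.9 and 89.7 FPKM in GB2 tumors 1, 2 and 3. All 3 GB2 sums lay above all 3 PBS sums. The leading ligands by mean FPKM were Cxcl10 (4.52 FPKM in PBS and 7.25 FPKM in GB2 tumors), Ccl7 (3.13 FPKM in PBS and 6.39 FPKM in GB2 tumors), Ccl8 (1.83 FPKM in PBS and 7.46 FPKM in GB2 tumors), Ccl6 (2.27 FPKM in PBS and 6.99 FPKM in GB2 tumors) and Ccl2 (2.85 FPKM in PBS and 6.14 FPKM in GB2 tumors). The leading ligand was not the same in every tumor. It was Cxcl10 in PBS tumor 2 and GB2 tumor 3, Ccl6 in GB2 tumors 1 and 2, Ccl7 in PBS tumor 1 and Ccl5 in PBS tumor 3. The 5 leading ligands of each tumor held between 42.7% and 54.2% of its ligand sum. In the order of mean FPKM, the top ligands were not separated by more than their spread, since Cxcl10 alone ranged from 1.21 to 14.3 FPKM.

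**Figure D1:**
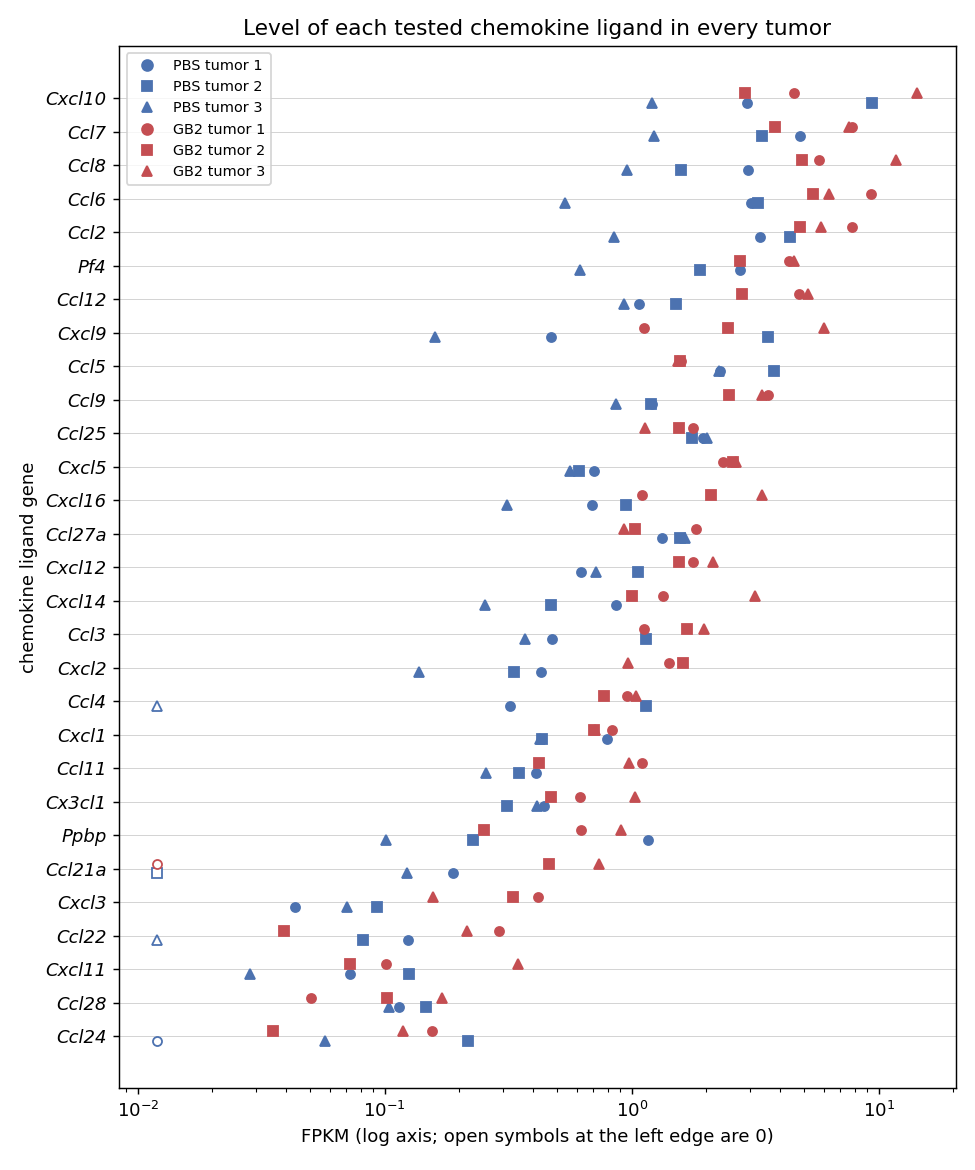
FPKM of the 29 tested chemokine ligands (log axis) in each PBS tumor (blue) and each GB2 tumor (red), one symbol per tumor, ordered by mean level, with values of 0 as open symbols at the left edge. The highest single value is Cxcl10 in GB2 tumor 3 at 14.3 FPKM, and Ccl5 is a ligand whose red symbols all lie left of the blue ones.

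GB2 and PBS tumors were compared by edgeR's quasi-likelihood test over all 19602 genes with enough counts, and a gene was called at a Benjamini-Hochberg adjusted p under 0.05 if it also differed at least 2-fold. Of the 29 tested ligands, 0 were called, as were 0 of all genes (0%), although 1360 genes had an unadjusted p under 0.05 and DESeq2 called 385 genes. The smallest adjusted p of a ligand was 0.186, for Cxcl5. At an unadjusted p under 0.05 and at least 2-fold, 10 of the 29 ligands (34.5%) were higher in GB2 tumors, against 3.74% of all genes tested, and 0 were lower, against 0.918%. Without the fold limit 11 ligands had an unadjusted p under 0.05. The count of 10 was 6 without GB2 tumor 3 and 14 without PBS tumor 1. DESeq2 called 7 ligands, all higher in GB2 tumors (24.1% of the 29, against 1.80% of all genes).

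Log2 fold changes of the 29 ligands ran from -0.89 to 1.99, with a median of 1.11, while the median over all genes tested was -0.016. The fold change was above 0 in 25 ligands and below 0 in 4. All 3 GB2 values lay above all 3 PBS values in 11 ligands (37.9%, against 8.61% of all genes tested) and below them in 2 ligands, Ccl5 and Ccl25, a share close to the 6.68% of all genes tested that lay below. None of the 29 ligands was under 3 read pairs in every tumor of a group. In 6 of them (Ccl4, Ccl21a, Ccl22, Ccl24, Cxcl11 and Ppbp) fewer than 3 PBS tumors reached the level the filter asks for, and none of these 6 is among the 10. All 6 had fold changes above 0, so they are part of the 25 and enter the median of 1.11, which are given as description only.

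**Figure D2:**
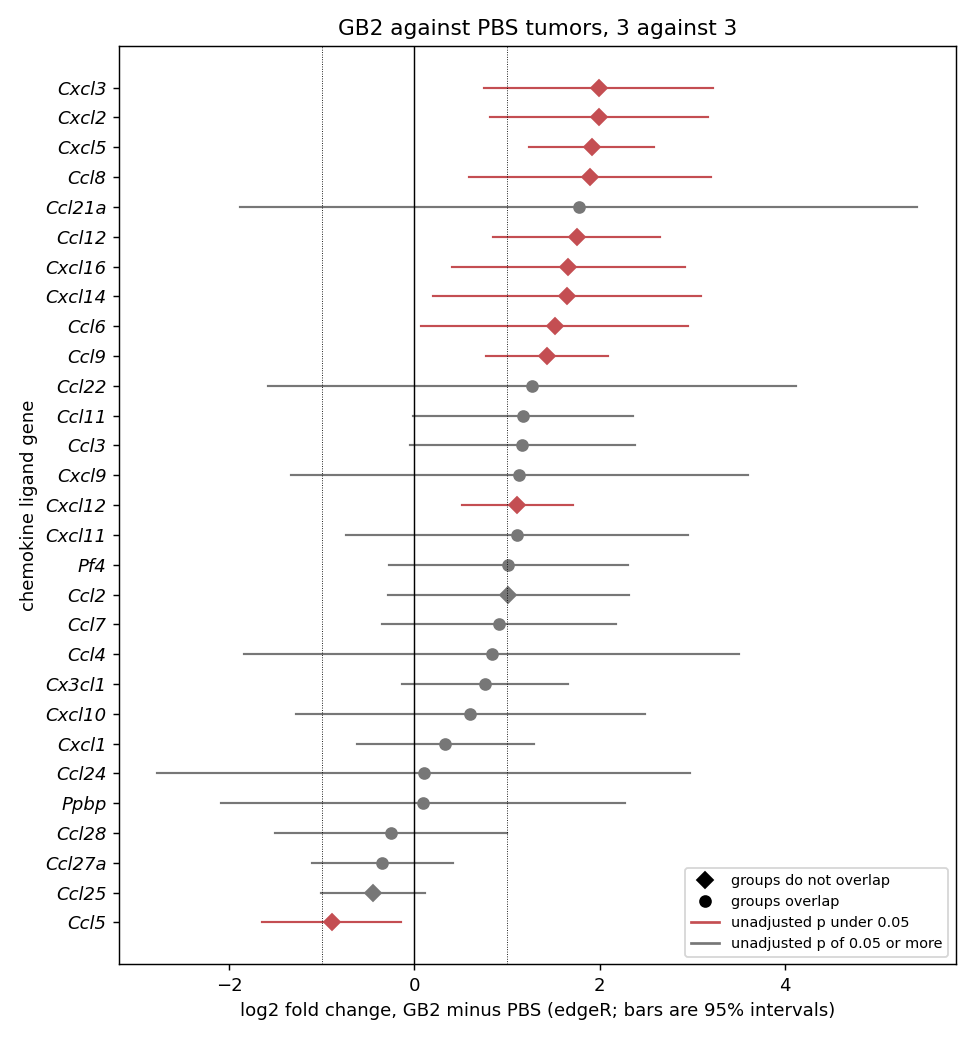
Log2 fold change of each tested ligand, GB2 minus PBS, with its 95% interval from edgeR (3 tumors against 3). Diamonds mark ligands whose groups do not overlap and red marks an unadjusted p under 0.05. Of the 11 red ligands 10 lie at or beyond a log2 value of 1, and Ccl5 lies at -0.89.

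The ligands of CXCR2, the neutrophil receptor, are given gene by gene, and differences between them were not tested. Cxcl2, Cxcl3 and Cxcl5 were higher in every GB2 tumor, and Cxcl1 and Ppbp overlapped between the groups. Cxcl5, known from epithelial and stromal cells, was at 1.54, 1.19 and 1.09 CPM in PBS tumors 1, 2 and 3 and at 4.39, 5.01 and 4.99 CPM in GB2 tumors 1, 2 and 3. Every GB2 tumor was above every PBS tumor and the values within each group lay close together. This amounts to 1.91 ± 0.29 (SE) on the log2 scale. edgeR's quasi-likelihood test gave an adjusted p of 0.186, whereas the DESeq2 adjusted p was 1.57e-08.
Cxcl2, a chemokine of activated macrophages, was at 1.08, 0.752 and 0.311 CPM in PBS tumors and 2.98, 3.51 and 2.04 CPM in GB2 tumors. The groups did not overlap, and PBS tumor 3 was lowest. GB2 exceeded PBS by 1.99 ± 0.50 (SE) on the log2 scale (edgeR adjusted p 0.322, DESeq2 adjusted p 0.012). Cxcl3 was less abundant, at 0.186, 0.355 and 0.269 CPM in PBS tumors and 1.47, 1.21 and 0.565 CPM in GB2 tumors. These groups did not overlap either, although GB2 tumor 3 was well below the other GB2 tumors. On the log2 scale the difference was 1.99 ± 0.53 (SE, edgeR adjusted p 0.353, DESeq2 adjusted p 0.047). On FPKM values, with 0.1 added before the log, limma gave 1.2 for Cxcl3, and with 1 added 0.28.

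Cxcl1, whose gene lies between those of Cxcl3 and Cxcl2 and which shares the kappaB letters shown above, was at 1.76, 0.852 and 0.835 CPM in PBS tumors and 1.60, 1.40 and 1.35 CPM in GB2 tumors. PBS tumor 1 was the highest of all, so the groups overlapped. The log2 fold change was 0.34 with a 95% interval of -0.61 to 1.29. The ratio of counts of neighbouring ligands was also taken within each tumor, for pairs chosen after their values were seen, so it is given with no test. The ratio of Cxcl2 to Cxcl1 was 0.615, 0.883 and 0.373 in PBS tumors and 1.87, 2.52 and 1.5 in GB2 tumors. The ratio of Cxcl5 to Cxcl1 was 0.875, 1.4 and 1.30 in PBS tumors and 2.75, 3.60 and 3.69 in GB2 tumors. The ratio of Cxcl3 to Cxcl1 was 0.106, 0.417 and 0.322 in PBS tumors and 0.918, 0.871 and 0.417 in GB2 tumors. The groups stood apart in the first and second of these ratios, while in the last PBS tumor 2 and GB2 tumor 3 were level.
Ppbp, a platelet chemokine and the last CXCR2 ligand measured, was at 1.47, 0.255 and 0.113 CPM in PBS tumors and 0.679, 0.288 and 0.988 CPM in GB2 tumors. The groups overlapped, PBS tumor 1 was highest, and the 95% interval of the log2 fold change was -2.08 to 2.28. PBS tumor 1 also had the highest erythroid sum, and a part of blood in the Ppbp value was not tested. The receptor gene Cxcr2 was at 0.118, 0.241 and 0.142 CPM in PBS tumors and 0.619, 0.745 and 1.02 CPM in GB2 tumors.

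In the interferon-inducible CXCR3 ligands, the spread between tumors of 1 group was as wide as the distance between groups. Cxcl9, induced mainly by interferon gamma, was at 1.67, 11.2 and 0.509 CPM in PBS tumors and 3.41, 7.77 and 18.2 CPM in GB2 tumors. Cxcl10, induced by type I and type II interferons, was at 7.78, 22.1 and 2.81 CPM in PBS tumors and 10.3, 6.83 and 32.6 CPM in GB2 tumors. Cxcl11 was at 0.321, 0.497 and 0.113 CPM in PBS tumors and 0.393, 0.288 and 1.33 CPM in GB2 tumors. For all 3 genes, GB2 tumor 3 was highest, PBS tumor 2 came next and PBS tumor 3 was lowest, so the groups overlapped.
The log2 fold changes had wide 95% intervals, at -1.33 to 3.60 for Cxcl9, -1.28 to 2.48 for Cxcl10 and -0.73 to 2.95 for Cxcl11 (edgeR adjusted p 0.816, 0.870 and 0.787). That of Cxcl10 was 0.60 with all tumors and -0.35 without GB2 tumor 3, and leaving out the same tumor gave 0.32 for Cxcl9 and 0.14 for Cxcl11. Cxcl9 came to 3.17 when PBS tumor 2 was left out. The neighbouring gene Art3 lies over Cxcl10 and Cxcl11 on the opposite strand and had 3244 counts in GB2 tumor 3 against 511 to 1123 in the others. Whether the authors' counting used strand is not given in the sources used here, so reads of these genes cannot be told apart with certainty.
The summed CPM of 10 genes of the interferon gamma response had the same highest, second and lowest tumor. It was 184, 295 and 63.1 CPM in PBS tumors and 136, 272 and 512 CPM in GB2 tumors, and Ifng itself, too low to test, was at 0.284 CPM at most. The T cell markers were highest in PBS tumor 2 (8.77 CPM) and GB2 tumor 3 (7.71 CPM) and lowest in PBS tumor 3 (1.43 CPM). The 12 genes of the type I interferon response summed to 123, 123 and 65.1 CPM in PBS tumors and 107, 136 and 236 CPM in GB2 tumors. The part of T cells or interferon in the ligand values was not tested.

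**Figure D3:**
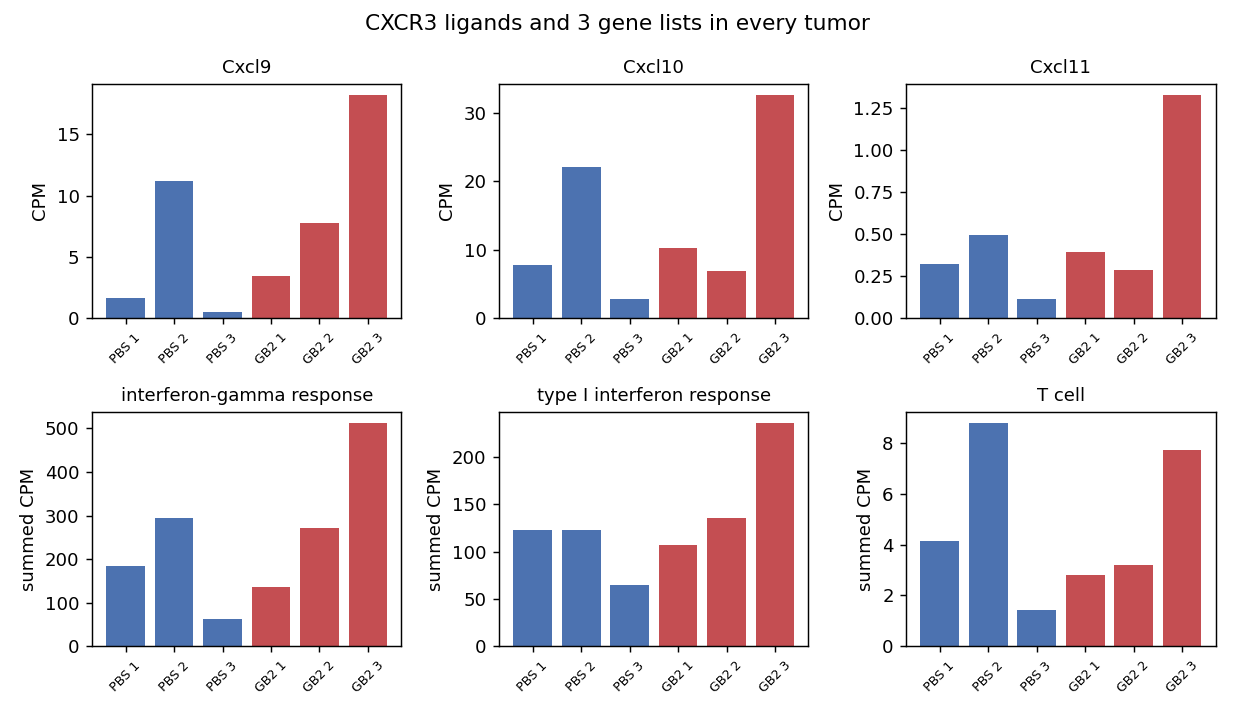
CPM of Cxcl9, Cxcl10 and Cxcl11 (top) and the summed CPM of 3 gene lists (bottom) in each PBS tumor (blue) and each GB2 tumor (red), on linear axes from 0. GB2 tumor 3 and PBS tumor 2 have the highest bars for all 3 ligands and for the interferon gamma and T cell lists.

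Pf4, a platelet chemokine that also binds CXCR3, was at 2.33, 1.43 and 0.481 CPM in PBS tumors and 3.17, 2.09 and 3.32 CPM in GB2 tumors. PBS tumor 1 was above GB2 tumor 2, and the edgeR adjusted p was 0.757 for a log2 fold change of 1.01. The summed level of 8 other platelet markers overlapped between the groups, at 39.1 to 51.2 CPM and 43.2 to 83.4 CPM, nearly all of it from Itgb3.

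All 3 tested ligands among the homeostatic and other CXC genes were higher in every GB2 tumor, as were 8.61% of all genes tested. Cxcl12, the stromal ligand of CXCR4 that holds stem cells and lymphocytes in place, was at 5.97, 9.05 and 6.01 CPM in PBS tumors and 14.6, 13.3 and 17.5 CPM in GB2 tumors. On the log2 scale GB2 exceeded PBS by 1.11 ± 0.26 (SE) (edgeR adjusted p 0.276, DESeq2 adjusted p 0.005). Cxcl14, made by epithelial and stromal cells, was at 1.86, 0.908 and 0.481 CPM in PBS tumors and 2.46, 1.92 and 5.80 CPM in GB2 tumors. GB2 tumor 3 had over 2 times the value of the other tumors, while GB2 tumor 2 lay just above PBS tumor 1. For Cxcl14 the log2 difference was 1.65 (edgeR adjusted p 0.652), with 1.02 without GB2 tumor 3 and 2.30 without PBS tumor 1. Cxcl16 encodes a membrane-bound ligand of CXCR6, which is shed by proteases and also takes up oxidized lipid. It was at 2.44, 2.99 and 0.990 CPM in PBS tumors and 3.35, 6.62 and 10.3 CPM in GB2 tumors, with a log2 fold change of 1.66 (edgeR adjusted p 0.532). Zmynd15 overlaps it by 552 bases on the opposite strand and had 22 to 45 counts in PBS and 100 to 251 counts in GB2 tumors.

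The CCR2 ligands, which call monocytes from the blood, were among the most abundant ligands, and Ccl12 had the largest fold change of them. Ccl12 was at 0.693, 0.852 and 0.523 CPM in PBS tumors and 2.58, 1.59 and 2.81 CPM in GB2 tumors. The groups did not overlap, and GB2 exceeded PBS by 1.75 ± 0.39 (SE) on the log2 scale (edgeR adjusted p 0.267, DESeq2 adjusted p 0.0034). Ccl2, the main monocyte attractant, was at 4.40, 5.19 and 1.0 CPM in PBS tumors and 8.94, 5.72 and 6.71 CPM in GB2 tumors. Its groups did not overlap, but GB2 tumor 2 and PBS tumor 2 lay close together, and PBS tumor 3 was lowest by far. For Ccl2 the log2 difference was 1.01 with a 95% interval of -0.29 to 2.31. Ccl7 was at 4.48, 2.81 and 1.02 CPM in PBS tumors and 6.29, 3.21 and 6.11 CPM in GB2 tumors, and PBS tumor 1 lay above GB2 tumor 2. The log2 difference for Ccl7 was 0.91 (95% interval -0.35 to 2.17). The receptor gene Ccr2 was at 0.795, 2.2 and 0.439 CPM in PBS tumors and 3.74, 1.96 and 3.28 CPM in GB2 tumors, with overlap.

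The remaining inflammatory CC ligands (Ccl3, Ccl4, Ccl5, Ccl6 and Ccl9) had log2 fold changes above 0 in 4 genes and below 0 in Ccl5. Ccl9, a CCR1 ligand of myeloid cells, was at 4.29, 3.80 and 2.70 CPM in PBS tumors and 10.9, 7.88 and 10.3 CPM in GB2 tumors, without overlap. The log2 difference was 1.43 ± 0.28 (SE) (edgeR adjusted p 0.230, DESeq2 adjusted p 1.89e-04). Ccl6, also a CCR1 ligand of macrophages, was at 6.38, 6.05 and 1.02 CPM in PBS tumors and 16.8, 10.2 and 11.4 CPM in GB2 tumors. Every GB2 tumor was above every PBS tumor, and PBS tumor 3 was far below the others. The opposite-strand gene that spans it, E230016K23Rik, had at most 8 counts in any tumor. The log2 difference for Ccl6 was 1.51 (edgeR adjusted p 0.699).
Ccl3 was at 0.440, 0.922 and 0.297 CPM in PBS tumors and 0.869, 1.35 and 1.52 CPM in GB2 tumors, and Ccl4 at 0.254, 0.795 and 0 CPM and 0.643, 0.541 and 0.694 CPM. Both are early products of activated macrophages. In both genes PBS tumor 2 lay within or above the GB2 values, so the groups overlapped, and the edgeR adjusted p values were 0.740 and 0.874.
Ccl5, known from T cells, NK cells and macrophages, was lower in every GB2 tumor. It was at 2.57, 3.79 and 2.22 CPM in PBS tumors and 1.55, 1.57 and 1.51 CPM in GB2 tumors, the GB2 values lying within a narrow range. The log2 fold change was -0.89 with a 95% interval of -1.64 to -0.14. The adjusted p in edgeR's test was 0.625, so Ccl5 was not called. The receptor gene Ccr1 was at 1.27, 1.09 and 0.679 CPM in PBS tumors and 4.69, 3.80 and 6.12 CPM in GB2 tumors.

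Ccl8, which in mice signals through CCR8, was at 1.78, 0.852 and 0.509 CPM in PBS tumors and 2.95, 2.61 and 6.07 CPM in GB2 tumors. All GB2 tumors were higher, GB2 tumor 3 most, and the log2 difference was 1.89 ± 0.56 (SE) (edgeR adjusted p 0.448, DESeq2 adjusted p 0.048). It was 1.42 without GB2 tumor 3 and 2.52 without PBS tumor 1. The receptor gene Ccr8 was detected only in GB2 tumor 3, at 0.047 CPM.
The eotaxin Ccl11, an eosinophil attractant, was at 0.524, 0.397 and 0.297 CPM in PBS tumors and 1.2, 0.481 and 1.07 CPM in GB2 tumors. PBS tumor 1 lay above GB2 tumor 2, and the 95% interval of the log2 fold change was -0.01 to 2.36. Ccl24, the other eotaxin measured, lay between 0 and 0.298 CPM in all tumors with overlap. Ccl22, a macrophage and dendritic cell ligand of CCR4, lay between 0 and 0.338 CPM in PBS and between 0.096 and 0.679 CPM in GB2 tumors. Ccl21a, a lymph node and lymphatic ligand of CCR7, was at 0 in PBS tumor 2 and GB2 tumor 1 and reached 0.647 CPM in GB2 tumor 3. Its log2 fold change of 1.77 had a 95% interval of -1.88 to 5.43. Cx3cl1, a membrane-bound ligand of endothelial and epithelial cells, was at 2.05, 1.28 and 1.68 CPM in PBS tumors and 2.46, 1.95 and 4.07 CPM in GB2 tumors, with PBS tumor 1 above GB2 tumor 2. GB2 minus PBS was 0.76 on the log2 scale (95% interval -0.14 to 1.66).

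The 3 tested ligands of CCR9 and CCR10, which serve homing to gut, skin and mucosa, had log2 fold changes below 0, while Ccl27b was too low to test. Ccl25, a thymus and gut chemokine, had the highest mean CPM of the ligands in PBS tumors, a scale that does not allow for transcript length. It was at 17.0, 13.7 and 15.6 CPM in PBS tumors and 13.3, 12.2 and 8.52 CPM in GB2 tumors, and the groups did not overlap in CPM, although they did in FPKM. Its gene shares 204 bases with the far more abundant Elavl1 on the opposite strand. The log2 fold change was -0.44 with a 95% interval of -1.0 to 0.12. Ccl27a, the skin ligand of CCR10, was at 3.75, 3.96 and 4.12 CPM in PBS tumors and 4.41, 2.63 and 2.28 CPM in GB2 tumors, with GB2 tumor 1 the highest of all. Ccl28 was at 0.659, 0.738 and 0.523 CPM and 0.250, 0.529 and 0.835 CPM, and the 95% interval of its log2 fold change was -1.50 to 1.0. For Ccl27a that interval was -1.10 to 0.42.

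**Figure D4:**
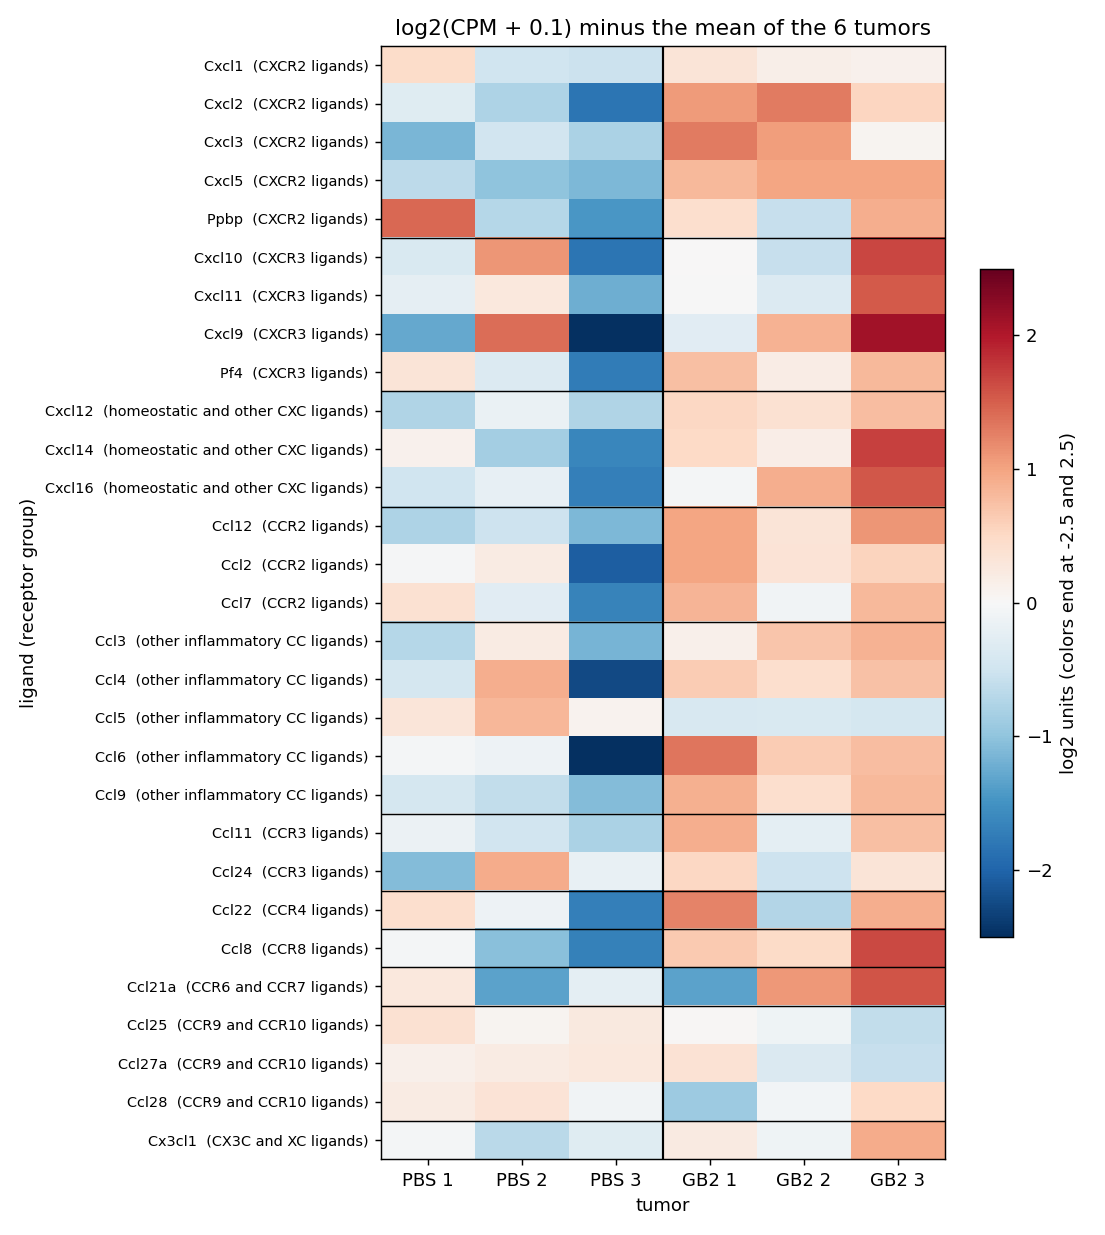
Log2(CPM + 0.1) of each tested ligand minus its mean over the 6 tumors, by receptor group (rows) and tumor (columns), with colors ending at -2.5 and 2.5. PBS tumor 3 is the bluest column, with the lowest value of 20 of the 29 ligands, and the CXCR3 ligands Cxcl9, Cxcl10 and Cxcl11 are red in PBS tumor 2 and GB2 tumor 3.

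Most ligand genes lie in clusters, and the values were read by cluster on the positions of the deposited table. On chromosome 5, from 90907219 to 91053797, the 6 genes Cxcl5, Ppbp, Pf4, Cxcl3, Cxcl1 and Cxcl2 had a median log2 fold change of 1.47, and 3 of them had GB2 values all above PBS values. Over all genes tested that share was 8.61%, and 6.68% lay below. The cluster of Cxcl9, Cxcl10 and Cxcl11, from 92469206 to 92513344 on the same chromosome, had 0 of 3. On chromosome 11, 5 of the 6 genes from 81926397 to 82070638 were tested, and 3 of them (Ccl2, Ccl12 and Ccl8) had GB2 values all above PBS values. In the cluster from 83416604 to 83555509 this held for 2 of 5 genes, Ccl6 and Ccl9, while Ccl5 lay below. The chromosome 4 cluster, from 41769467 to 42773993, had 6 ligands with 2 tested. Ccl22, Cx3cl1 and Ccl17 lie together on chromosome 8, with 2 tested. In each of these clusters 0 ligands had GB2 values all above PBS values.

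Of 17 chemokine receptor genes read in the table, 11 were tested, and 0 were called by edgeR's quasi-likelihood test. At an unadjusted p under 0.05 and at least 2-fold, 3 were higher in GB2 tumors (Ccr1, Cxcr2 and Cx3cr1) and 0 were lower (3.74% and 0.918% of all genes tested), with a median log2 fold change of 0.79 over the 11. Ccr1 had the largest fold change, at 2.26 ± 0.37 (SE) on the log2 scale (edgeR adjusted p 0.186). The next receptors are named for their ligands, not for their values. Cxcr3, the receptor of Cxcl9 and Cxcl10, was at 1.47, 5.08 and 6.37 CPM in PBS tumors and 4.73, 7.32 and 7.87 CPM in GB2 tumors, with overlap. Cxcr4, the receptor of Cxcl12, was at 1.73, 3.76 and 2.49 CPM and 4.09, 5.42 and 4.26 CPM, without overlap.
Of 10 NF-kappaB response genes, 3 were higher at the same limits (3.74% of all genes tested), namely Il1a, Il1b and Il6, with Il1b at 1.47, 1.72 and 0.750 CPM in PBS tumors and 6.05, 5.19 and 4.55 CPM in GB2 tumors. The sum of the 10 overlapped between groups, at 60.4 to 71.7 CPM and 65.7 to 78.6 CPM. GB2 values of 6 of the 10 lay all above PBS values and those of 1, Nfkbiz, all below, against 8.61% and 6.68% of all genes tested. Of the 12 genes of the type I interferon response, 4 were higher at these limits, again against 3.74% of all genes tested. They were Irf7, with a log2 fold change of 1.64 (edgeR adjusted p 0.341), Oasl1, Usp18 and Cmpk2. GB2 values of 5 of the 12, Ifit2 and Mx2 among them, lay all above PBS values and those of 0 all below, against 8.61% and 6.68% of all genes tested. Isg15, Ifit1 and Ifit3, core members of that response, had log2 fold changes of 0.035, 0.20 and 0.32 and overlapped between the groups. Of 8 tested interferon gamma response genes, 0 were higher or lower at these limits.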

How the data were processed

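RNA of 3 PBS and 3 GB2 tumors was sequenced as poly-A selected, paired-end libraries made with dUTP marking of strand, per the labels. The authors deposited, for each gene and tumor, an estimated count (already whole, so no rounding was needed, and not scaled between tumors) and an FPKM value, scaled by transcript length and library total. The submitters' processing notes name cutadapt 1.9, HISAT2 2.2.1, StringTie 2.1.6, DESeq2, edgeR and the build mm10, without saying which step used which. Among 31999 IDs also found in the GRCm38 annotation, 595 (1.86%) had equal start and end, so positions printed for genes are the table's own, while promoter windows are RefSeq on GRCm38.p6. Values of 4 occur 7017 times, against 2984 equal to 3 and 2017 equal to 5, hence about 4 counts a read pair.

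The main analysis used edgeR 4.0.16 (R 4.3.3). After filterByExpr (minimum count 10) and TMM scaling (factors 0.914 to 1.04), the quasi-likelihood test (glmQLFit, glmQLFTest) was run, and p values were adjusted by Benjamini-Hochberg over all 19602 genes. CPM use the library size times its TMM factor. Standard errors are the log2 fold change over the root of F, and 95% intervals use the total degrees of freedom. The common dispersion of 0.164 gives a coefficient of variation of 40.5% between tumors, which limits what 3 against 3 can show. The computation was tested on simulated counts. Alternatives were DESeq2 1.42.0, limma 3.58.1 on log2(FPKM + 1) and log2(FPKM + 0.1), median-of-ratios factors, no filter, a minimum count of 40, counts divided by 4 (chosen after seeing the data), a replicate block and leaving out each tumor.

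One chemokine receptor gene is not reported here. The ligands, receptor groups and gene lists were chosen with earlier results of these data known. All ligands found by the symbol rule are named, with values in every tumor for those with an unadjusted p under 0.05, for the most abundant, and for most of the rest. Tumor numbers were not taken as pairs, as same-numbered tumors' deviations from the mean of each group had correlations of 0.031, 0.154 and -0.245. No batch is named in the labels. Nothing says that the tumors of a group came from separate cages or experiments. The p-values set the group difference against the spread between these tumors, and may not cover the spread between cages or experiments.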

Additional observations from a re-analysis of the deposited data

How the results depend on the processing

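Calls depended on the test. DESeq2 called 385 genes and 7 ligands, where edgeR's quasi-likelihood test called 0 of each, also without any 1 tumor. At an unadjusted p under 0.05 and 2-fold, 10 ligands differed (10 higher, 0 lower). limma on log2(FPKM + 1), where the added 1 shrinks low genes, gave 5 (5 higher, against 0.485% of all genes higher in that fit), limma on log2(FPKM + 0.1) gave 14 (3.17%) and DESeq2 12 (4.07%), all higher. Fold sizes changed order between these fits, with Ccl8 (2.00) and Cxcl2 (1.89) leading Ccl6 (1.88), Cxcl5 (1.85) and Cxcl3 (1.2) under the smaller addition, and Ccl8 (1.56) and Ccl6 (1.40) above Cxcl5 (1.11), Cxcl2 (0.84) and Cxcl3 (0.28) under the larger. Leaving out 1 tumor gave 6 to 14 in all and 6 to 14 higher. The lowest count came without GB2 tumor 3 (2.49% of all genes tested) and the highest without PBS tumor 1 (4.63%). From 0 to 1 were lower, with 1 of 30 ligands without PBS tumor 3. In that fit 548 of all 20695 genes tested were lower. Ligands whose groups do not overlap numbered 13, and 13 to 19 without 1 tumor, with 11 to 17 above and 2 to 3 below. Fewer tumors overlap less often, and the share of all genes above rose from 8.61% to between 11.6% and 15.7%. On the FPKM scale 14 ligands lay above (10.3% of all genes) and 1 below (4.89%). The median log2 fold change of the ligands was 0.74 (without PBS tumor 3) to 1.51 (without PBS tumor 2). With the replicate block, which pairs tumors that share only a number, 9 ligands were higher (3.24% of all genes), 0 were called and the median was 1.27. A minimum count of 40 and counts divided by 4 each left 24 ligands in the fit, without Ccl11, Ccl21a, Ccl22, Ccl24 and Cxcl11. In each of these fits 10 ligands were higher (3.97% and 4.1% of all genes) and 0 were called. The medians were 1.06 and 1.08. Of 396 single-ligand values under the alternatives, 387 kept their direction. Ccl24 ranged from -0.45 to 1.63 when 1 tumor was left out, with -0.27 without GB2 tumor 1, -0.036 without GB2 tumor 3, -0.45 without PBS tumor 1 and -0.12 without PBS tumor 3. Ppbp ranged from -0.39 to 1.82, with -0.33 without GB2 tumor 3, -0.27 without PBS tumor 2 and -0.39 without PBS tumor 3. Cxcl10 ranged from -0.35, without GB2 tumor 3, to 1.65, and Ccl28 from -0.71 to 0.093, the latter without GB2 tumor 1. Without 1 tumor, Cxcl9 ranged from 0.32 to 3.17, Ccl4 from 0.25 to 2.32, Cxcl11 from 0.14 to 1.63, Ccl22 from 0.69 to 2.11, Ccl21a from 1.04 to 2.65, Cxcl14 from 1.02 to 2.30, Ccl8 from 1.42 to 2.52 and Ccl3 from 0.87 to 1.76. The causes were not tested. Depth limits the 9 untested ligands, and counts under 12 in every tumor of a group are too few for a fold. Ccl21a, Ccl22 and Ccl24 had counts under 12 in at least 1 tumor of each group, so their folds are uncertain.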

Other observations

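Chemokines are cut or shed by proteases and taken up by decoy receptors, and these genes were read beside the ligands. Of 6 proteases known to process chemokines, 1 was higher in GB2 tumors at an unadjusted p under 0.05 and at least 2-fold, and 0 were lower, against 3.74% and 0.918% of all genes tested. Mmp9, which cleaves CXCR2 ligands, was at 3.31, 1.32 and 2.14 CPM in PBS tumors and 9.48, 12.4 and 11.8 CPM in GB2 tumors, 2.32 ± 0.37 (SE) higher on the log2 scale (edgeR adjusted p 0.186). The next genes are named for their role. Adam10 and Adam17, which shed Cxcl16 and Cx3cl1, were at 113 to 153 CPM and 85.2 to 103 CPM in PBS tumors and at 139 to 243 CPM and 81.8 to 94.4 CPM in GB2 tumors, with overlap in both. Dpp4, which trims Cxcl10 and Cxcl12, had a log2 fold change of 0.34.
Of 5 atypical receptor genes, 1 gene, Ccrl2, passed the same limits (3.74% of all genes tested), from 0.676, 0.468 and 0.467 CPM in PBS tumors to 1.16, 1.24 and 1.75 CPM in GB2 tumors. The scavenger receptor of Cxcl12, Ackr3, was at 2.89, 3.05 and 3.10 CPM in PBS tumors and 4.37, 5.74 and 6.01 CPM in GB2 tumors, without overlap, with a log2 fold change of 0.83.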
